A study of Mus musculus with 39 samples.

Results

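The 35 genes described here encode the chaperones, folding enzymes and degradation machinery of the endoplasmic reticulum (ER) together with 3 regulators of that machinery. They were taken by name from the 19938 genes measured, each from a probe set annotated with that gene symbol alone, and where a symbol had several probe sets the one with the highest mean over the arrays was used. All 35 were measured. The list was chosen with earlier results of these data known. Its counts beside the shares of all genes therefore describe these 35 genes and are no independent test. By role they comprised 11 genes of ER-associated degradation (ERAD), 10 chaperones of the HSP70 and HSP90 families with their J-domain partners and small luminal helpers, 3 genes of the lectin chaperone cycle, 8 disulfide and prolyl isomerases, and 3 stress sensors or transcription factors. RNA of pancreatic islets was hybridized to 39 Affymetrix Mouse Gene 1.0 ST arrays. Of these, 4 were from Pdx1-creLate mice of backcross generation N8, which were not pregnant, and 4 from wild-type control littermates of the same backcross. The other 31 were from wild-type C57bl6/J mice: non-pregnant females (4 arrays), at pregnancy day 3.5 (3 arrays), at days 6.5, 9.5, 12.5, 15.5 and 18.5 (4 arrays each), and 10 days post partum (4 arrays). Pdx1-creLate is a Cre driver whose transgene is controlled by a fragment of the Pdx1 promoter active in beta cells, and as background, a minigene of human growth hormone is part of that construct.

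Proteins bound for secretion fold in the ER lumen, where HSP70 and HSP90 chaperones hold them, lectin chaperones read their glycans and isomerases set their disulfide bonds and prolines. Proteins that fail are drawn back through the membrane by the ERAD machinery, ubiquitinated and degraded. The unfolded protein response adjusts this capacity through the sensors IRE1 (encoded by Ern1), ATF6 and PERK, and the spliced product of Xbp1 and the cleaved form of ATF6 act as transcription factors on many of the genes listed. Beta cells make proinsulin, a protein with disulfide bonds, in very large amounts, and islets in mouse pregnancy enlarge and secrete more insulin.

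The values are log2 expression after robust multi-array averaging (RMA) and carry 1 decimal, so 0.1 is the smallest step between arrays. Arrays correlated at 0.9728 to 0.9956 (Pearson's r across genes, which are not independent replicates). The islet hormone genes Ins2 and Gcg were bright on every array (11.9 to 12.7 and 13.0 to 14.0). Non-pregnant replicate 1 stood apart, with Ins2 at 11.9 against 12.4 to 12.7 on the other 38 arrays, Iapp at 13.0 against 13.7 to 13.9, and Gcg at 13.0 against 13.5 to 14.0. Exocrine RNA varied between arrays: the mean of 23 acinar markers ran from 8.14 to 9.97 in Pdx1-creLate and from 7.97 to 9.24 in control littermates, and in C57bl6/J islets from 7.34 to 9.14 without pregnancy, 5.40 to 7.68 at day 3.5, 9.20 to 9.50 at day 6.5, 6.17 to 9.12 at day 9.5, 8.11 to 9.31 at day 18.5 and 7.84 to 9.63 post partum. The labels give no sex for the backcross mice. On their 8 arrays Xist was at 3.8 to 5.0 and the Y-linked Eif2s3y at 7.1 to 8.0, against 9.7 to 10.5 and 2.5 to 2.9 on the 31 C57bl6/J arrays (both genes were looked at after the values were seen). Low Xist with a Y-linked gene expressed is the pattern of male mice. By these 2 genes the 8 backcross arrays read as male and the 31 C57bl6/J arrays as female. The ER genes are also highly expressed by acinar cells, and in bulk islet RNA a change in cell numbers and a change in RNA per cell cannot be told apart.

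A gene is called where limma's test gave a Benjamini-Hochberg adjusted p under 0.05 over all 19938 genes. Differences are on the log2 scale with their standard error (SE), group means carry the SD, and n is 4 arrays per group unless stated. Levels are compared for 1 gene at a time, because probe sets of different genes do not share a scale. The samples are labelled as biological replicates, and the p-values measure the spread between them.

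Promoters are shown first because a known sequence element is shared by part of the 35 genes. Over pregnancy days 9.5 to 18.5, 28 of the 35 were higher than without pregnancy (8.26% of all genes). Of these, 6 carried the ER stress response element described below and 19 had a promoter entry without it. RefSeq promoters (GRCm38.p6) were held for 31 of the 35 genes; Derl1, Atf6, Hyou1 and Manf had no entry. The ER stress response element (ERSE, searched as CCAAT and CCACG with 9 free bases between them, on both strands of the 250 bases before the gene start) is the element through which ATF6 acts with the CCAAT-binding factor NF-Y. It was present in 9 of the 31 promoters (29%), namely those of Calr, Canx, Creld2, Derl3, Dnajc3, Hsp90b1, Hspa5, Pdia6 and Syvn1, against 35 of 27025 genes with a promoter entry (0.13%). ERSE-II (ATTGG and CCACG with 1 free base between them) was found in Herpud1 alone (10 genes of the whole table, 0.037%), and the XBP1 core TGACGTGG in Ube2j1 alone (163 genes, 0.603%). The 3 motifs share the letters CCACG or their reverse complement and could overlap, but no member held more than 1 kind. The stretches below carry the element in genes that rose in pregnancy (Hspa5, Derl3, Calr, Pdia6) and in genes that were called in none of the comparisons with a direction (Canx, Syvn1, Herpud1). Each is written 5′ to 3′ along the gene, with the fixed letters of the element in capitals; in Derl3 and Calr the element lies on the opposite strand and is read as its reverse complement.
Hspa5, chr2:34772005-34772063, plus strand: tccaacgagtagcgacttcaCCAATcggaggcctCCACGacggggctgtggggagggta
Derl3, chr10:75893222-75893280, plus strand: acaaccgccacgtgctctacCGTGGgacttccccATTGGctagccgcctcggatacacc
Calr, chr8:84847055-84847113, minus strand: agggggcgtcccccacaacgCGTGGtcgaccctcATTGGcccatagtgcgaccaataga
Pdia6, chr12:17266471-17266529, plus strand: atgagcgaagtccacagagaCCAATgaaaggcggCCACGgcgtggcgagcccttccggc
Canx, chr11:50325780-50325838, minus strand: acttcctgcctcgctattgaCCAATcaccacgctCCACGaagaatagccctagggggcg
Syvn1, chr19:6046512-6046570, plus strand: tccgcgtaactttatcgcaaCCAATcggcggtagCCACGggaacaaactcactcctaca
Herpud1, chr8:94386357-94386407, plus strand: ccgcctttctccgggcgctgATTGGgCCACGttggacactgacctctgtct
In Hspa5 the ERSE occupied the bases from 65 to 47 before the gene start, in Derl3 from 156 to 138 and in Syvn1 from 44 to 26. Hsp90b1 held 2 copies, on opposite strands. A match describes these letters in this window and is neither a proven site nor a cause. The 35 genes were chosen by name from the machinery that this stress response governs. A high share of the element follows from that choice and says nothing about changes on the arrays.

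Pdx1-creLate islets had higher RNA of 5 of the 35 genes than islets of control littermates, and 0 were lower, where 2.86% of all genes tested were called higher and 3.72% lower. Those that rose were Derl3, which helps export misfolded proteins from the ER, Edem1, which trims the mannose of glycoproteins marked for degradation, Sel1l, the adaptor that holds the membrane ligase complex of ERAD together, the sensor Ern1, and Pdia5, a protein disulfide isomerase. Of the ERAD genes 3 of 11 rose. The median difference of the 35 genes was 0.10, against −0.03 over all genes.

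Derl3 (GRCm38.p6 chromosome 10, 75893398 to 75895941) was at 8.5, 8.6, 8.5 and 8.4 on the 4 Pdx1-creLate arrays, against 7.2, 7.6, 7.5 and 8.0 on the 4 control arrays. The groups did not overlap, and control replicate 4 was the nearest of its group. The difference was 0.93 ± 0.14 (1.90-fold, limma adjusted p = 0.000545). Edem1 (chromosome 6, 108824045 to 108859356) was at 10.1, 10.2, 10.1 and 10.2 in Pdx1-creLate islets and 9.2, 9.3, 9.3 and 9.5 in control islets. Every Pdx1-creLate array was thus above every control array, and the difference was 0.83 ± 0.09 (1.77-fold, limma adjusted p = 3.81e-05). Sel1l (chromosome 12, 91806043 to 91849157) was at 10.6, 10.5, 10.5 and 10.6 in Pdx1-creLate islets, against 9.9, 10.0, 9.9 and 10.1 in control islets. The gap between the groups was wider than the spread within either, with a difference of 0.58 ± 0.09 (limma adjusted p = 0.000715).

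Ern1 (chromosome 11, 106397620 to 106487796) was at 10.0, 10.1, 9.7 and 9.6 in Pdx1-creLate islets and 9.2, 9.4, 9.3 and 9.0 in control islets, again without overlap, a difference of 0.63 ± 0.12 (1.54-fold, limma adjusted p = 0.00583). Pdia5 (chromosome 16, 35397308 to 35490919) was at 9.3, 9.1, 9.4 and 9.5 in Pdx1-creLate islets, against 8.9, 9.1, 8.8 and 8.9 in control islets. These groups met at 9.1, and the difference of 0.40 ± 0.11 had a limma adjusted p of 0.0349. The call of Pdia5 was lost with quantile normalization, with median centring, with a replicate block, and without any of 6 of the 8 arrays (all but Pdx1-creLate replicate 2 and control replicate 2).

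None of the 10 genes in the HSP70, HSP90 and J-domain class and none of the 3 lectin-cycle genes was called by limma in Pdx1-creLate islets (1 and 0 at an unadjusted p under 0.05). Hspa5, which encodes BiP, the main HSP70 of the ER lumen (chromosome 2, 34772090 to 34776529), was at 12.3, 12.2, 12.5 and 12.5 in Pdx1-creLate islets and 12.4, 12.4, 12.3 and 12.5 in control islets. Its groups overlapped fully, with a difference of −0.03 ± 0.10 (limma adjusted p = 0.914). Xbp1 was at 11.0, 10.9, 10.7 and 10.9 in Pdx1-creLate islets and 10.5, 10.6, 10.7 and 10.7 in control islets, and its difference of 0.25 ± 0.09 was not called (limma adjusted p = 0.153). Atf6 was at 9.4, 9.5, 9.9 and 9.9 in Pdx1-creLate islets, against 9.6, 9.6, 9.6 and 9.5 in control islets (difference 0.10 ± 0.12, limma adjusted p = 0.724). In this gene the Pdx1-creLate arrays lay both below and above the controls.

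Of the 9 beta-cell markers 4 fell in Pdx1-creLate islets (Ucn3, Slc2a2, Slc30a8 and Mafa), and 2 had a difference above 0. The mean over the 9 genes was 11.0 to 11.16 in Pdx1-creLate and 11.37 to 11.4 in control islets. Ins2, Iapp and Pdx1 were not called, with means of 12.53, 13.7 and 9.83 in Pdx1-creLate islets and 12.6, 13.75 and 9.78 in control islets. Acinar markers were called in neither direction (0 of 23, median difference 0.73), and their ranges overlapped. The duct marker Cftr rose by 3.53 ± 0.23 (limma adjusted p = 1.8e-07), with no call in the other 5 duct markers. Of the other islet endocrine markers 2 of 6 fell (Ppy and Sst), and the mean over the 6 was 9.48 to 9.88 in Pdx1-creLate and 9.97 to 10.25 in control islets. Of the stellate markers 2 of 10 fell (Acta2 and Col1a2), and of the macrophage markers 1 of 10 rose (Lyz2, 0.78). With the acinar mean of each array as a covariate the 5 genes were still called; the part of the other marker lists was not tested. With trend and robust variance 8 members were called and with all 39 arrays in 1 model 9 were, none of them lower.

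**Figure D1:**
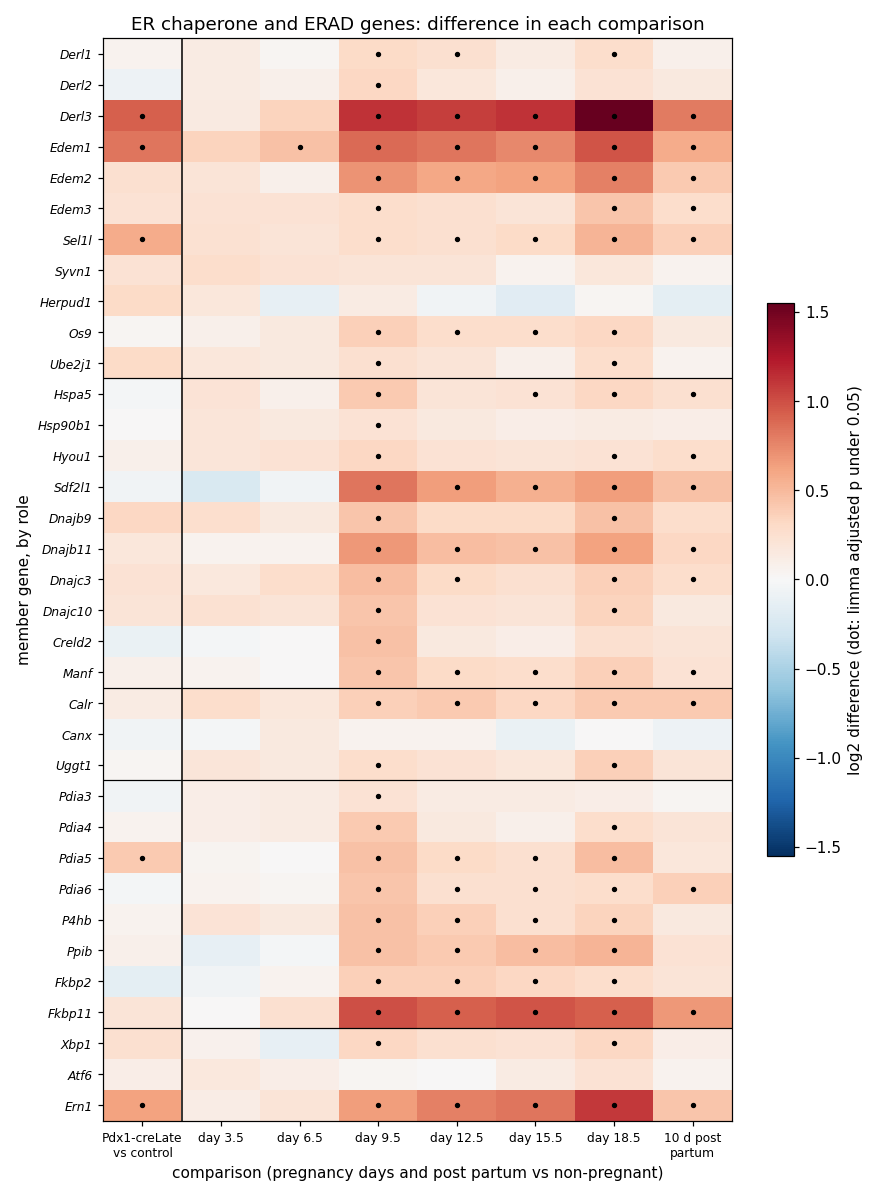
Log2 difference of each of the 35 genes (rows, grouped by role from ERAD at the top to sensors and transcription factors at the bottom) in Pdx1-creLate against control islets and at each pregnancy day and 10 days post partum against non-pregnant islets (columns). Dots mark a limma adjusted p under 0.05; at day 9.5 there are 31 dots, and Canx, Atf6, Syvn1 and Herpud1 have none.

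Most of the 35 genes were called higher at pregnancy days 9.5 and 18.5, and fewer were at days 12.5 and 15.5. Against non-pregnant islets 0 of the 35 genes were called at day 3.5 (0.0201% of all genes were called higher; 13 members were higher and 1 lower at an unadjusted p under 0.05) and 1, Edem1, was higher at day 6.5 (0.502% of all genes). Day 9.5 had 31 higher (11.6% of all genes), day 12.5 had 18 (4.08%), day 15.5 had 17 (3.7%) and day 18.5 had 27 (8.59%), and 0 were lower on any of the 6 days. Of all genes, 0.0251%, 0.12%, 7.74%, 1.19%, 4.53% and 2.5% were called lower at the 6 days in order. After median centring the all-gene calls were 3824 higher and 425 lower at day 9.5, against 2321 and 1543 as reported, and 3072 and 142 at day 18.5, against 1712 and 498. The median difference of the 35 genes was 0.40 at day 9.5, 0.25 at days 12.5 and 15.5, and 0.35 at day 18.5, while that of all genes was −0.03, 0, 0.03 and 0. All these comparisons share the same 4 non-pregnant arrays. At day 9.5, 26 of the 35 genes had every array above every non-pregnant array (8.97% of all genes).

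**Figure D2:**
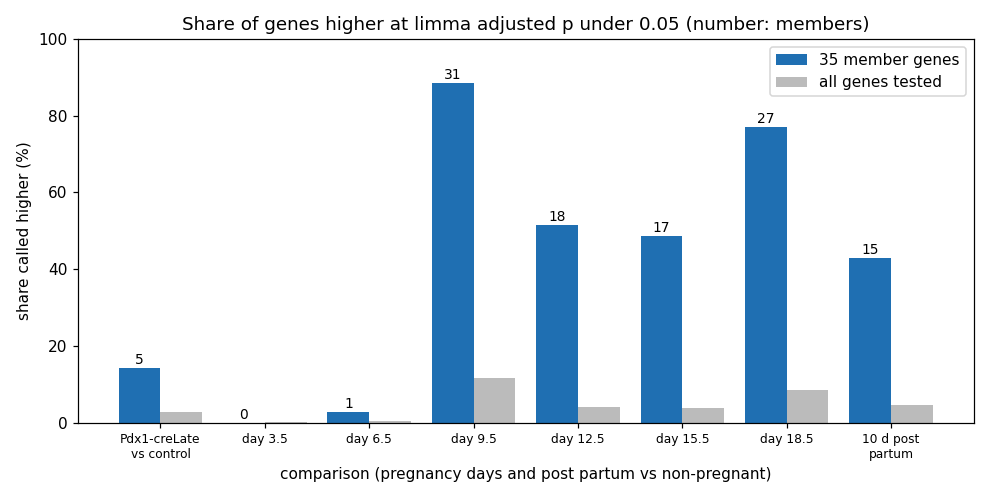
Share of the 35 genes (blue) and of all genes tested (grey) that were higher at a limma adjusted p under 0.05 in each comparison; the number above a blue bar is the count of the 35. The counts are 5 in Pdx1-creLate islets, 0, 1, 31, 18, 17 and 27 at pregnancy days 3.5 to 18.5, and 15 at 10 days post partum.

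The spread of values within an array differed between groups. The SD over genes was 1.87 to 1.89 at day 3.5, 1.87 to 1.95 at day 9.5, 1.72 to 1.82 at day 15.5 and 1.85 to 1.91 at day 18.5, against 1.76 to 1.84 in non-pregnant islets. With that SD as a covariate, an alternative added after the data were seen, 14 genes were called at day 9.5 and 16 at day 18.5, and with quantile normalization of all arrays 20 were called at day 9.5; Derl3, Fkbp11, Edem1, Edem2, Sdf2l1, Dnajb11, Ern1 and Hspa5 kept their day 9.5 call under both. The day 12.5 count was 10 after median centring, and the day 15.5 count was 11 with only the groups compared. Without non-pregnant replicate 1 the counts were 29, 19, 14 and 25 at days 9.5, 12.5, 15.5 and 18.5. Acinar markers had a median difference of −0.85 at day 9.5 and 0.40 at day 18.5, and 1 of 23, Bhlha15, was called, higher at both days (0.90 and 0.80). B and plasma cell markers lay at 4.58 to 4.97 over all arrays, as a mean of 6 genes. At day 9.5, 3 of 10 macrophage markers were higher, and 3 of 9 beta-cell markers were higher and 1 lower; their part in the ER gene differences was not tested.

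**Figure D3:**
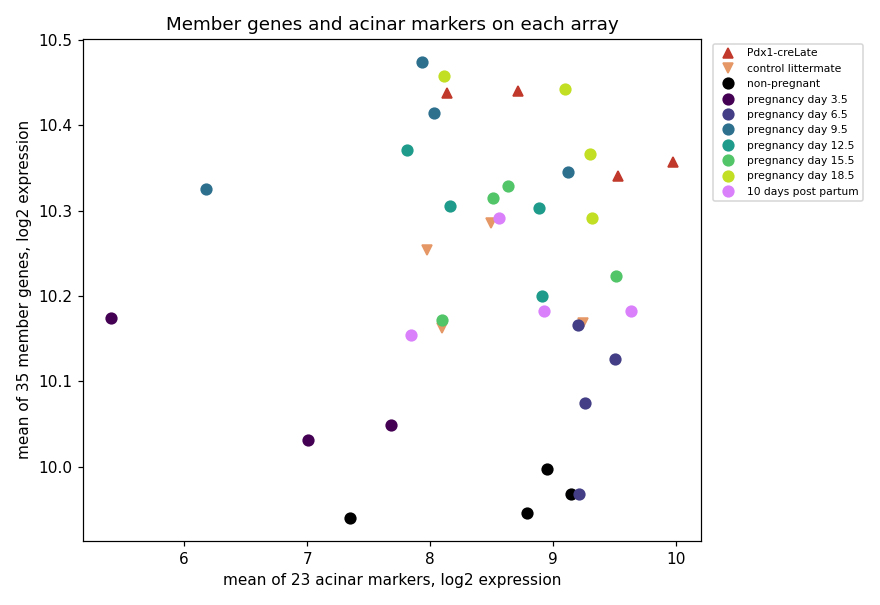
Mean log2 level of the 35 genes (vertical) against the mean of 23 acinar markers (horizontal) on each of the 39 arrays, with the group shown by colour and shape. The arrays of day 9.5 lie between 10.33 and 10.47 on the vertical axis over a wide acinar range (6.17 to 9.12), and the 4 non-pregnant arrays lie between 9.94 and 10.00.

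Of the 11 ERAD genes 9 rose at day 9.5, 6 at day 12.5, 5 at day 15.5 and 8 at day 18.5. Derl3 changed most. It was at 8.2, 8.0, 8.1 and 8.3 at day 18.5, against 6.6, 6.7, 6.5 and 6.6 in non-pregnant islets. The lowest day 18.5 array was well above the highest non-pregnant one, with a difference of 1.55 ± 0.09 (2.93-fold, limma adjusted p = 6.78e-14). Its group means were 6.60 without pregnancy, 6.73 at day 3.5 (n = 3), 6.95 at day 6.5, 7.73 at day 9.5, 7.68 at day 12.5, 7.73 at day 15.5, 8.15 at day 18.5 and 7.40 post partum, with SDs of 0.08 to 0.18. Days 9.5, 12.5 and 15.5 did not differ beyond their spread. Edem1 was at 10.3, 10.1, 10.2 and 10.3 at day 18.5, against 9.4, 9.2, 9.2 and 9.2 in non-pregnant islets, a difference of 0.98 ± 0.08 (1.97-fold, limma adjusted p = 1.04e-10). It was the gene with the earliest call: at day 6.5 its arrays read 9.7, 9.5, 9.7 and 9.9, above every non-pregnant array, with a difference of 0.45 ± 0.08 (limma adjusted p = 0.00274) that was not called when only these 2 groups were fitted.

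Edem2, a mannosidase that starts the trimming, was at 10.1, 10.0, 10.1 and 10.1 at day 18.5, against 9.5, 9.4, 9.2 and 9.1 in non-pregnant islets (chromosome 2, 155701673 to 155729475). There was no overlap, and the difference was 0.78 ± 0.08 (1.71-fold, limma adjusted p = 1.64e-08). Sel1l was at 10.1, 10.0, 10.0 and 10.1 at day 18.5 and 9.6, 9.5, 9.5 and 9.5 in non-pregnant islets, a difference of 0.53 ± 0.07 (1.44-fold, limma adjusted p = 6.62e-06). Os9, the lectin that delivers glycoproteins to that complex, rose at all 4 days from 9.5 on, by 0.28 to 0.38. Derl1, a channel component, rose by 0.30, 0.25 and 0.28 at days 9.5, 12.5 and 18.5, and Ube2j1, a ubiquitin-conjugating enzyme, by 0.25 and 0.28 at days 9.5 and 18.5. Edem3 rose by 0.28 at day 9.5 and 0.43 at day 18.5. Derl2 was called at day 9.5 alone (0.33 ± 0.12, limma adjusted p = 0.0468); that call was lost without any of 6 of the 8 arrays and the estimate was −0.04 with the array SD as a covariate. Syvn1, the ubiquitin ligase HRD1 itself, and Herpud1, its membrane partner, were called at no day, with differences of 0.05 to 0.27 and of −0.18 to 0.18.

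All 10 genes of the HSP70, HSP90 and J-domain class rose at day 9.5, 4 at days 12.5 and 15.5, and 8 at day 18.5. The class includes Sdf2l1, Creld2 and Manf as small luminal helpers. Sdf2l1, a component of ER chaperone complexes (chromosome 16, 17130138 to 17132383), was at 10.5, 10.6, 10.6 and 10.7 at day 9.5, against 9.8, 9.9, 9.5 and 9.7 at day 6.5. No array of either day reached the other, and this step of 0.88 ± 0.09 (1.83-fold, limma adjusted p = 3.91e-08) was its largest difference; in non-pregnant islets it was at 9.9, 9.8, 9.7 and 9.7. Dnajb11, a J-domain partner of BiP, was at 9.8, 10.0, 9.9 and 10.0 at day 9.5, against 9.5, 9.2, 9.1 and 9.2 in non-pregnant islets, and rose by 0.68 ± 0.10 (1.60-fold, limma adjusted p = 2.24e-05). Dnajc3, which also inhibits PERK, was at 11.4, 11.6, 11.6 and 11.6 at day 9.5, against 11.1, 11.1, 11.0 and 11.1 in non-pregnant islets. The 2 groups were apart, by 0.48 ± 0.08 (limma adjusted p = 9.09e-05).

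Hspa5 was at 12.3, 12.4, 12.5 and 12.5 at day 9.5, against 11.9, 12.1, 12.0 and 12.1 in non-pregnant islets. The rise was 0.40 ± 0.07 (1.32-fold, limma adjusted p = 0.000168). Over the course its means were 12.03 without pregnancy, 12.23 at day 3.5, 12.10 at day 6.5, 12.43 at day 9.5, 12.23 at day 12.5, 12.25 at day 15.5, 12.35 at day 18.5 and 12.28 post partum, with SDs of 0.05 to 0.12, and days 12.5 and 15.5 differed by less than their SDs (0.10 and 0.06). Manf, a secreted ER protein that protects stressed cells, rose by 0.28 to 0.43 at the 4 later days. Dnajb9, Dnajc10 and Hyou1, which are J-domain partners and an HSP70-like exchange factor of BiP, rose at days 9.5 and 18.5 by 0.23 to 0.45. Creld2 (0.45) and Hsp90b1, the HSP90 of the ER (0.23), were called against non-pregnant islets at day 9.5 and at no other single day, and the Hsp90b1 call was lost without any of 4 arrays and under quantile normalization.

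In the lectin cycle Calr (calreticulin) was at 11.7, 11.5, 11.6 and 11.6 at day 18.5, against 11.1, 11.3, 11.2 and 11.2 in non-pregnant islets, without overlap (0.40 ± 0.07, limma adjusted p = 0.000253). It rose at all 4 days from 9.5 on, by 0.33 to 0.40. Uggt1, the glucosyltransferase that sends misfolded glycoproteins back for another round, was at 10.5, 10.5, 10.5 and 10.6 at day 18.5, against 10.2, 10.1, 10.2 and 10.1 in non-pregnant islets, and rose by 0.38 ± 0.07 (limma adjusted p = 0.000303). Its partner Canx (calnexin) was at 11.7, 11.7, 11.8 and 11.8 at day 9.5 and 11.5, 11.7, 11.8 and 11.8 in non-pregnant islets. Its differences over the 6 days ran from −0.10 to 0.15, with no call.

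All 8 isomerases rose at day 9.5, 6 at days 12.5 and 15.5, and 7 at day 18.5. Fkbp11, a prolyl isomerase of secretory cells (chromosome 15, 98724368 to 98728198), was at 8.2, 8.4, 8.3 and 8.4 at day 9.5, against 7.4, 7.4, 7.2 and 7.3 in non-pregnant islets. Its rise of 1.00 ± 0.08 (2.00-fold, limma adjusted p = 3.33e-10) was held at 0.93, 0.98 and 0.93 at days 12.5, 15.5 and 18.5. Ppib, another prolyl isomerase, was at 10.0, 9.7, 9.9 and 9.8 at day 18.5, against 9.5, 9.3, 9.3 and 9.2 in non-pregnant islets (0.53 ± 0.11, limma adjusted p = 0.00134). The groups did not overlap. Pdia5 was at 9.2, 9.1, 9.2 and 9.3 at day 18.5, against 8.8, 8.7, 8.7 and 8.7 in non-pregnant islets (0.48 ± 0.07, limma adjusted p = 1.98e-05). P4hb, the archetypal protein disulfide isomerase, was at 12.1, 12.2, 12.2 and 12.2 at day 9.5 and 11.6, 11.8, 11.8 and 11.7 in non-pregnant islets (0.45 ± 0.06, limma adjusted p = 6.18e-06). Neither gene overlapped with non-pregnant islets at the day given. Pdia6 and Fkbp2 rose at all 4 days from 9.5 on, by 0.25 to 0.43. Pdia3, the isomerase that works with calnexin and calreticulin, was called at day 9.5 alone (0.23 ± 0.08, limma adjusted p = 0.0494), and that call was lost without any of 6 of the 8 arrays. Pdia4 rose by 0.40 at day 9.5 and 0.28 at day 18.5 in the probe set used; a second, dimmer probe set of the gene (mean 5.47) had −0.28 at day 18.5, and the mean of both gave 0.

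Among the regulators Ern1 was at 10.4, 10.2, 10.4 and 10.4 at day 18.5, against 9.2, 9.2, 9.3 and 9.3 in non-pregnant islets. The difference of 1.10 ± 0.09 (2.14-fold, limma adjusted p = 3.16e-11) was the second largest at that day after Derl3 among the 35 genes. Its means were 9.25 without pregnancy, 9.37 at day 3.5, 9.45 at day 6.5, 9.90 at day 9.5, 10.03 at day 12.5, 10.08 at day 15.5, 10.35 at day 18.5 and 9.68 post partum, with SDs of 0.06 to 0.21. Xbp1 (chromosome 11, 5520641 to 5525993) was at 10.8, 10.9, 11.0 and 11.0 at day 9.5, against 10.6, 10.5, 10.5 and 10.3 at day 6.5 and 10.6 on each non-pregnant array. Its step of 0.45 ± 0.08 between these days was called (limma adjusted p = 0.000303), as was its rise over non-pregnant islets of 0.33 ± 0.08 at day 9.5 and at day 18.5 (limma adjusted p = 0.00548 and 0.00677). The array reports total Xbp1 RNA and not its splicing. Atf6 was at 9.5, 9.4, 9.3 and 9.4 at day 18.5 and 9.3, 9.2, 9.1 and 9.1 in non-pregnant islets. The groups met at 9.3, and 0.23 ± 0.10 was not called (limma adjusted p = 0.169).

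**Figure D4:**
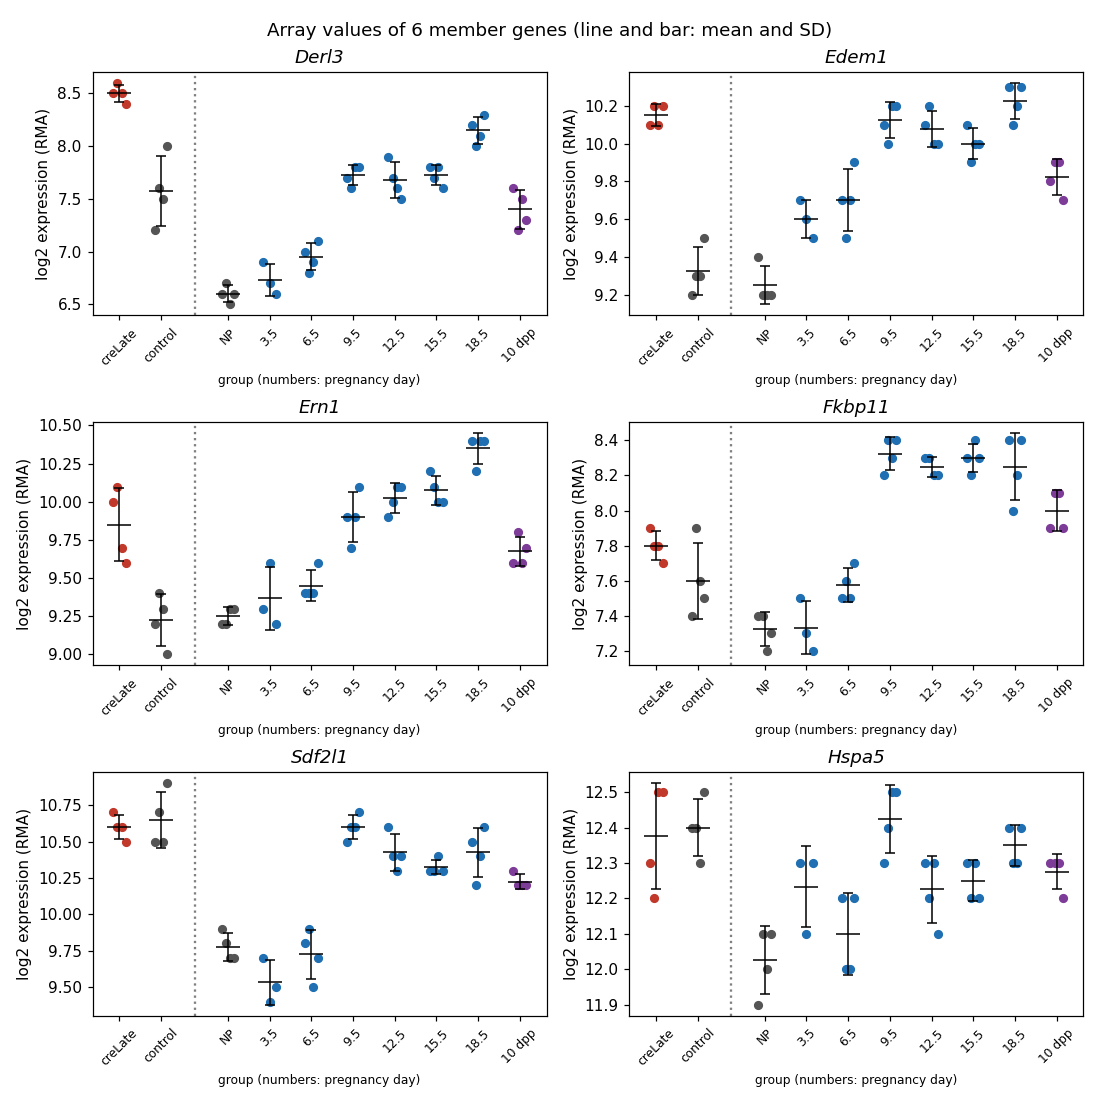
Log2 expression of Derl3, Edem1, Ern1, Fkbp11, Sdf2l1 and Hspa5 on each array (points) with group mean and SD (line and bar), Pdx1-creLate and control at the left and C57bl6/J groups from non-pregnant (NP) to 10 days post partum (10 dpp) at the right of the dotted line. Derl3 and Ern1 are highest at day 18.5 among the C57bl6/J groups, while Sdf2l1 and Hspa5 have Pdx1-creLate and control arrays in 1 range.

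The genes did not move evenly over the days. Means of the 6 pregnancy days differed by the moderated F-test of limma in 22 of the 35 genes, where 38.6% of all genes tested were called. Between consecutive days 20 genes rose in the step to day 9.5 from day 6.5 (10.5% of all genes were higher there and 6.93% lower), and 4 in the step to day 18.5 from day 15.5 (6.08% of all genes higher and 4.21% lower), namely Derl3 (0.43 ± 0.09), Ern1 (0.28), Sel1l (0.23) and Pdia5 (0.23). In the step to day 9.5, 16 of 23 acinar markers were lower and 1 higher (median −1.88) and 3 of 10 stellate markers lower, and in the step to day 18.5, 4 of 10 endothelial markers were higher. With the acinar mean as a covariate there were 20 calls over all steps, against 24 as reported; the part of the other markers was not tested. Over all steps there were 37 calls after median centring (34 higher and 3 lower) and 13 with the array SD as a covariate. Centring also changed the all-gene calls to 4268 higher and 360 lower for day 18.5 against 15.5, where 1213 and 840 are reported, and to 113 and 1053 for day 12.5 against 9.5, where 342 and 301 are reported. The other 3 steps had 0 limma calls among the 35 genes, with 3 higher and 2 lower at an unadjusted p under 0.05 at day 6.5 against day 3.5 (0.808% of all genes called higher and 0.446% lower), 7 lower at day 12.5 against day 9.5 (1.72% called higher and 1.51% lower) and 1 lower at day 15.5 against day 12.5 (0% called). The highest mean of the 8 C57bl6/J groups fell on day 9.5 for 19 genes and on day 18.5 for 14, and the lowest on non-pregnant islets for 28, counting ties in each. Derl3, Edem1, Edem2, Sel1l and Ern1 were in the second set, and Sdf2l1, Fkbp11, Hspa5, P4hb and Pdia6 in the first. These sets rank means only: day 18.5 was not tested against day 9.5, and no share of all genes was computed. In Fkbp11 the means of days 9.5 and 18.5 (8.33 and 8.25) differed by less than their SDs (0.10 and 0.19). In Derl3 they differed by more (7.73 and 8.15, SDs 0.10 and 0.13). Herpud1, uncalled against non-pregnant islets, passed the F-test (adjusted p = 0.0185), with its highest mean at day 3.5 (11.20) and its lowest at day 15.5 (10.85).

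At 10 days post partum 15 of the 35 genes were higher than in non-pregnant islets (4.46% of all genes) and 0 were lower (7.78%). They comprised 5 ERAD genes, 6 genes of the HSP70, HSP90 and J-domain class, Calr, Pdia6, Fkbp11 and Ern1. Derl3 was at 7.6, 7.2, 7.5 and 7.3 post partum, against 6.6, 6.7, 6.5 and 6.6 in non-pregnant islets. All 4 post partum arrays were thus above the non-pregnant ones, by 0.80 ± 0.09 (1.74-fold, limma adjusted p = 4.83e-07). Fkbp11 was 0.68 ± 0.08 and Edem1 0.58 ± 0.08 higher (limma adjusted p = 1.77e-06 and 8.45e-06). Of the markers, 5 of 10 endothelial, 3 of 10 stellate and 2 of 6 other islet endocrine genes were lower post partum than in non-pregnant islets; their part was not tested. With median centring, or with only these 2 groups fitted, 9 members were called, and with the array SD as a covariate 24 were.

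Against pregnancy day 18.5, 14 of the 35 genes were lower post partum, but so were 18.4% of all genes tested, and 0 were higher (11.8% of all genes; 0 members also at an unadjusted p under 0.05). Derl3 was at 7.6, 7.2, 7.5 and 7.3 post partum, against 8.2, 8.0, 8.1 and 8.3 at day 18.5, and it fell by 0.75 on the log2 scale (SE 0.09, limma adjusted p = 1.78e-05). Ern1 was at 9.6, 9.8, 9.6 and 9.7 post partum and 10.4, 10.2, 10.4 and 10.4 at day 18.5. It had no overlap and fell by 0.68 on the log2 scale (SE 0.09, limma adjusted p = 2.13e-05). Edem1 fell by 0.40 and Edem2 by 0.38 on the log2 scale. Of the 10 genes in the HSP70, HSP90 and J-domain class 2 fell, Dnajb11 by 0.30 and Dnajc10 by 0.20 on the log2 scale. Hspa5 had −0.08 (limma adjusted p = 0.418).

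The count across birth depended on the settings. The SD over genes was 1.73 to 1.82 post partum and 1.85 to 1.91 at day 18.5, and with it as a covariate 0 genes were called (12 of all genes tested); with quantile normalization 4 were, with only these 2 groups 6, and after median centring 22. The count came down to between 5 and 9 without any of 6 of the 8 arrays. Endothelial markers were also lower post partum (9 of 10, with a mean over the 10 genes of 7.59 to 7.72 against 7.99 to 8.14 at day 18.5), and stellate markers (5 of 10); the part of either in the ER gene differences was not tested.

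The change in Pdx1-creLate islets was set against that of pregnancy days 9.5 to 18.5 (mean of the 4 days, 16 arrays) in 1 model of all 39 arrays. In the pregnancy contrast 28 of the 35 genes were higher (8.26% of all genes) and 0 lower (2.9%). The difference of the 2 effects, Pdx1-creLate minus pregnancy, was called in 8 of the 35 genes, all lower, that is with a smaller or opposite difference in Pdx1-creLate (4.26% of all genes were called lower), and 0 were higher (1.61% of all genes; 2 members at an unadjusted p under 0.05). Fkbp11 had 0.20 in Pdx1-creLate and 0.96 in pregnancy, a difference of −0.76 ± 0.12 (limma adjusted p = 2.13e-05). Sdf2l1 had −0.05 in Pdx1-creLate and 0.67 in pregnancy, a difference of −0.72 ± 0.12 (limma adjusted p = 4.38e-05). Fkbp2 had −0.15 in Pdx1-creLate and 0.34 in pregnancy, with a difference of −0.49 ± 0.10 (limma adjusted p = 0.000804).

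The other 5 were Edem2, Pdia6, Hspa5, P4hb and Os9, with differences of −0.43 to −0.29. These 8 genes comprise luminal chaperones, isomerases and 2 ERAD genes. Of the genes called in Pdx1-creLate islets, none had a called difference between the 2 effects. Derl3 had 0.93 in Pdx1-creLate and 1.22 in pregnancy (−0.29 ± 0.14, limma adjusted p = 0.245), and Edem1 had 0.83 in Pdx1-creLate and 0.86 in pregnancy (−0.03 ± 0.10, limma adjusted p = 0.908). Ern1 had 0.63 in Pdx1-creLate and 0.84 in pregnancy (−0.21 ± 0.13, limma adjusted p = 0.373). Sel1l lay on the other side of equality, with 0.58 in Pdx1-creLate and 0.34 in pregnancy (0.24 ± 0.09, limma adjusted p = 0.138), and Pdia5 had 0.40 in Pdx1-creLate and 0.37 in pregnancy (0.03 ± 0.10, limma adjusted p = 0.908). A p that misses the threshold does not show that the effects are equal.

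The 2 control groups did not start level. All 8 of the genes with a called difference had a higher mean in control littermates than in non-pregnant C57bl6/J islets, with a median gap of 0.33, as did 31 of the 35 genes (88.6%, median 0.28) and 52.8% of all genes (median 0.03). Sdf2l1 was at 10.5, 10.7, 10.5 and 10.9 in control littermates, against 9.9, 9.8, 9.7 and 9.7 in non-pregnant islets. These control arrays covered the range of pregnancy day 9.5 (10.5 to 10.7). Fkbp11 was at 7.4, 7.9, 7.6 and 7.5 in control littermates, against 7.4, 7.4, 7.2 and 7.3 in non-pregnant islets. By Xist and Eif2s3y the control littermates read as male and the non-pregnant C57bl6/J mice as female. Backcross and sex thus differ together between these groups and cannot be told apart, and the comparison of the 2 effects spans both. With quantile normalization 4 differences were called (3 lower and 1 higher), and without control replicate 4 or non-pregnant replicate 1 there were 5.

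**Figure D5:**
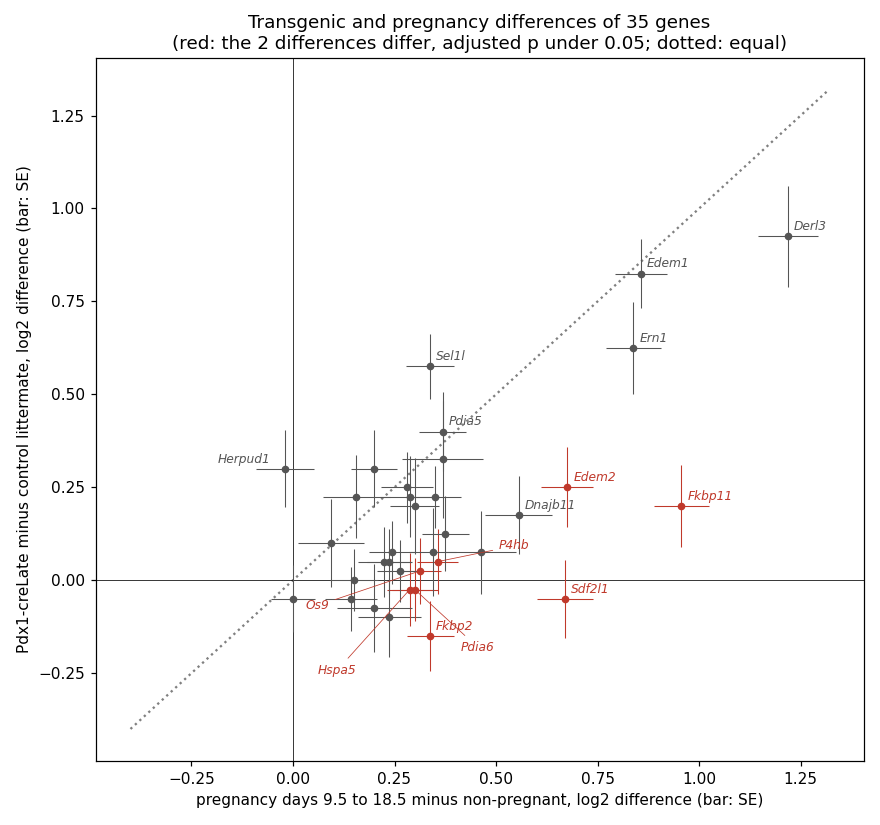
Difference of each of the 35 genes in Pdx1-creLate against control islets (vertical) and at pregnancy days 9.5 to 18.5 against non-pregnant islets (horizontal), both on the log2 scale with SE; the dotted line marks equal differences. The 8 genes in red have a called difference between the 2 effects and all lie below the line, while Derl3, Edem1, Ern1, Sel1l and Pdia5, called in Pdx1-creLate, are grey.

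Genes of the same pathways outside the 35 were counted from 3 lists. The shares of all genes called higher, for comparison, were 2.86% in Pdx1-creLate islets, 11.6% at day 9.5 and 8.59% at day 18.5. Of 40 other ER folding and ERAD genes 2 rose in Pdx1-creLate islets (Erlec1, 0.40, and the oxidase Ero1a, 0.38), 25 rose at day 9.5 (among them Serp1, 0.65, Erp29, 0.63, Rnf5, 0.63, and Rpn1, 0.60) and 17 at day 18.5. Of 30 genes of ER translocation and COPII export 1 rose in Pdx1-creLate islets (Sec11c, a signal peptidase subunit, 0.40), 20 at day 9.5 (Sec11c and Ssr4, 0.63 each) and 19 at day 18.5. Of 23 genes of the PERK and ATF4 arm 11 rose in Pdx1-creLate islets, where the cystine transporter gene Slc7a11 had 1.08, Chac1 0.98, Trib3 0.88 and Nupr1 0.85. In pregnancy 7 of these 23 rose at day 9.5 and 11 at day 18.5, with Nupr1 at 0.75 and 1.13. None of these lists had a lower call in these 3 comparisons. Other comparisons with non-pregnant islets had lower calls. Ddit4 of the PERK and ATF4 arm was lower at days 6.5 (−0.63), 12.5 (−0.53) and 15.5 (−0.48), and the export gene Sec23a post partum (−0.40). The difference between the Pdx1-creLate and pregnancy effects was called higher for 4 of the 23 PERK and ATF4 genes, Slc7a11 (0.85), Trib3 (0.68), Vldlr (0.48) and Ddit3 (0.48). It was called lower for 8 of the 40 other ER folding and ERAD genes, among them Rnf5 (−0.60), Rpn1 (−0.46), Selenok (−0.45) and Serp1 (−0.43), and for 3 of the 30 translocation and export genes, Ssr4 (−0.39), Ssr2 (−0.34) and Spcs3 (−0.32). Of all genes, 1.61% were called higher and 4.26% lower in this difference. It spans the same control groups, which did not start level in the 35 genes.

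Set against the promoters shown above, at day 9.5 the 9 members with an ERSE had a median of 0.40 (range 0.05 to 1.13, 7 called) and the 22 with a promoter entry but no ERSE a median of 0.41 (0.13 to 1.00, 21 called). At day 18.5 the median was 0.28 with the element (5 called) and 0.40 without it (19 called), and post partum against day 18.5 it was −0.08 with the element (1 called) and −0.20 without it (12 called). In Pdx1-creLate islets the median was 0 with the element (1 called) and 0.20 without it (4 called). Of all genes 11.6% were called higher at day 9.5, 8.59% at day 18.5 and 2.86% in Pdx1-creLate islets. Post partum against day 18.5, 18.4% of all genes were called lower. Hspa5 and Derl3, which both carry the element, differed by −0.03 and 0.93 from control there, and by 0.40 and 1.13 from non-pregnant islets at day 9.5.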

How the data were processed

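Affymetrix Mouse Gene 1.0 ST arrays of pancreatic islets (39 arrays, 10 groups) were used as deposited. The authors computed log2 values by RMA in Affymetrix Expression Console, per the submitters' processing notes; versions and whether all arrays were normalized together are not given in the sources used here. Of 35556 probe sets 21789 carried 1 gene symbol, giving 19938 genes; array medians lay at 5.8 to 6.0, and the precision is set by how many arrays a group holds. limma 3.58.1 (R 4.3.3) was fitted with empirical Bayes moderation and p-values were adjusted over all genes by the Benjamini-Hochberg method: Pdx1-creLate against control littermates on their 8 arrays, the C57bl6/J contrasts on 31 arrays in 1 model, and the difference of effects on all 39. The model was tested on simulated data with independent normal noise for each gene. That simulation held no differences in array SD or exocrine RNA, so it does not bear on the calls that depend on them. Figures were drawn with matplotlib 3.10.9.

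The members and lists were chosen with earlier results of these data known. All 35 members may be named; array values are given for Hspa5, Xbp1, Atf6 and Ern1 and for up to 4 called members per role, those with the largest difference, in the comparison where it is largest, and elsewhere where a comparison turns on them. From each other list up to 4 called genes per comparison are named. Replicate numbers were not treated as pairs in the main fits. Deviations of same-numbered arrays correlated at −0.02 to 0.16 in the backcross (1 of 4 pairs above 0.1) and −0.34 to 0.31 in C57bl6/J (21 of 105). The medians were 0.05 and 0.02, against −0.03 and 0.01 for arrays of other numbers. So few backcross pairs cannot exclude a pairing of littermates. The alternatives were quantile normalization, median centring, array weights, trend and robust variance, the acinar mean as a covariate, a replicate block, other samples in the fit, averaging all probe sets of a symbol, leaving out the dimmest 25% of genes and each array in turn, and, added after the data were seen, the array SD as a covariate.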

Additional observations from a re-analysis of the deposited data

Results flagged for a closer look

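A value was picked out where the gap between 1 array of a group of 4 and the other 3 made up most of the group's range. For unrounded values chance does this in about 1 in 20 groups, but that rate does not hold for values rounded to 0.1. Any array that differs from 3 tied arrays is picked out, however small the gap. The criterion therefore cannot tell an unusual array from a tie, and no conclusion is drawn from the values it picked. Of 315 combinations of a gene and a group of 4 arrays 54 met this criterion, in all of them with the other 3 arrays tied; in 42 the gap was a single rounding step of 0.1. The other 12 were Edem1 in non-pregnant replicate 1 (9.4), Edem3 in control littermate replicate 4 (9.5), Syvn1 at day 6.5 in replicate 4 (8.7), Dnajb11 in control littermate replicate 3 (9.3), Dnajc3 at day 9.5 in replicate 1 (11.4), Canx in control littermate replicate 4 (11.9), Pdia3 in non-pregnant replicate 1 (11.9), at day 9.5 in replicate 3 (12.2) and at day 15.5 in replicate 2 (12.1), Pdia6 in non-pregnant replicate 1 (11.2), and Ern1 at day 6.5 in replicate 4 (9.6) and at day 18.5 in replicate 2 (10.2). Non-pregnant replicate 1, low in Ins2 and Iapp, accounts for 3 of them.

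The effect in Pdx1-creLate islets minus that of pregnancy days 9.5 to 18.5 was past the threshold for 8 genes by limma's test of the difference: Fkbp11 (−0.76), Sdf2l1 (−0.72), Fkbp2 (−0.49), Edem2 (−0.43), Pdia6 (−0.33), Hspa5 (−0.31), P4hb (−0.31) and Os9 (−0.29).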

How the results depend on the processing

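Of 141 counts under other settings 121 were within 1.5 times the value reported. The cause of the other 20 was not tested. Array medians carry 1 decimal (5.8 to 6.0), so median centring shifts whole arrays against each other in steps of 0.1. In Pdx1-creLate islets 5 genes became 8 with trend and robust variance and 9 with all 39 arrays in 1 model. Against non-pregnant islets, day 3.5 had 1 with array weights; day 6.5 had 3 with trend and robust variance and 0 with only the groups compared; day 9.5 had 20 with quantile normalization and 14 with the array SD as a covariate; day 12.5 had 10 with centred arrays; day 15.5 had 11 with only the groups compared; and day 18.5 had 16 with the array SD. Post partum against non-pregnant gave 9 with centred arrays, 9 with only the groups compared and 24 with the array SD, and against day 18.5 it gave 4 with quantile normalization, 22 centred, 6 with only the groups compared and 0 with the array SD. The difference of effects gave 4 with quantile normalization, and the steps between days, 24 as reported, gave 37 centred and 13 with the array SD. Differences that turned were Derl2 at day 9.5 (−0.0432) and, post partum against day 18.5, Dnajb11 (0.0712), Dnajc10 (0.0696) and Ppib (0.0536), all with the array SD, and Pdia4 at day 18.5 with the mean of its probe sets (0). Leaving out each array gave 4 to 5 genes in Pdx1-creLate; 0 to 1, 1 to 3, 25 to 29, 13 to 21, 13 to 18 and 23 to 27 at the 6 days; 24 to 28 over days 9.5 to 18.5; 10 to 14 post partum against non-pregnant and 5 to 16 against day 18.5; 21 to 23 among days; 5 to 9 for the difference of effects; and 20 to 27 for the steps. Counts moved by over 1.5 times without non-pregnant replicate 1 (day 3.5, 1; difference of effects, 5), day 6.5 replicate 2 (day 6.5, 3), control replicate 4 (difference of effects, 5), post partum replicates 1, 2 and 4 (7, 8 and 8) and day 18.5 replicates 1, 3 and 4 (7, 9 and 5). A replicate block, though pairing by number was not established, gave 4 in Pdx1-creLate, 29 at day 9.5 and 8 for the difference of effects, and kept 204 of 210 calls. Centring moved the median of all genes to −0.15 post partum against day 18.5, from −0.03 as reported, so that 808 genes were higher and 6958 lower, against 2355 and 3659. The median of all genes moved likewise in the step to day 18.5 from day 15.5 (0.13, from 0.03 as reported) and in the difference of effects (−0.11, from −0.03).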
